A study of Mus musculus with 6 samples.

Results

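The genes described here are those of the MHC class I antigen presentation pathway and the immunoproteasome in mouse aortic smooth muscle cells. They were taken by gene symbol from the deposited count table, and all 10 named genes were found among its 20199 genes. By role they are the class I chains H2-K1, H2-D1 and B2m, the peptide transport and loading genes Tap1, Tap2 and Tapbp, the immunoproteasome catalytic subunits Psmb8, Psmb9 and Psmb10, and the class I transactivator Nlrc5. Bulk RNA sequencing was done on 3 libraries labelled WT/mTmG/ Myh11ERT2, called wild type, and on 3 labelled miR-21fl/flmTmG/Myh11ERT2, called knockout after their titles. Values of a group are given below in the order of its replicate numbers. All 6 were of strain C57B6, age 12 weeks, and cell type smooth muscle cell from aorta. Both genotypes therefore carried mTmG, a membrane-targeted fluorescent reporter of Cre activity, and Myh11ERT2, in which the smooth muscle myosin promoter drives the inducible recombinase. The sources used here state neither the induction of the recombinase, nor the isolation of the cells, nor whether libraries stem from separate animals, so p-values measure only the spread between these libraries, part of which may be technical. The question was how the knockout and wild-type cells differed in these genes.

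MHC class I molecules carry peptides from inside the cell to its surface, where CD8 T cells read them. A polymorphic heavy chain pairs with beta-2 microglobulin, and the peptides are cut by the proteasome, carried into the endoplasmic reticulum by the TAP transporter and loaded with the help of tapasin. Interferon gamma replaces the catalytic subunits of the proteasome by the immunoproteasome subunits and raises most genes of the pathway, while Nlrc5 acts with factors bound at the class I promoters. Cells of the vessel wall other than immune cells express the pathway at a basal level.

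Library totals ran from 17123748 to 28610649 counts. Wild-type replicate 1 stood apart: on the first principal component of log2 CPM, which held 40.6% of the variance, it lay at −58.1, against 1.53 to 27.3 for the other libraries. Fold changes without it are given below where they moved by more than 1.5 times. The labelled cell type was met by its markers, as the 12 smooth muscle markers summed to between 50950 and 58287 CPM in every library, and Acta2 alone was at 23047 ± 3188 CPM in wild type. Mir21a was not analysed here, so the deletion was not checked in these libraries.

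The microRNA that the floxed alleles concern is shown first, since none of the members with a searchable 3′ UTR held a site for it. It is encoded on the minus strand at chr11:86584120-86584141 of GRCm38.p6 (RefSeq), and the capitals mark the seed, bases 2 to 8.
miR-21a-5p: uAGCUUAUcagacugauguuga
The 7-base sites that pair with it, ATAAGCT and TAAGCTA, occurred in 0 of the 9 members whose longest annotated 3′ UTR could be searched (GENCODE vM1 transcripts), and in 9.65% of 19792 genes searched in the same way. Nlrc5 was not among the searched transcripts.

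Promoters of the members are shown because the same letters recur in them and because a pair of members shares one. RefSeq windows of 300 bases, from 250 before to 50 after an annotated start site on GRCm38.p6, were found for 8 of the 10 members. Capitals mark the letters searched on both strands. These were the interferon response element core (GAAA and GAAA around any 2 bases), a shorter core of interferon regulatory factors AANNGAAA, added after the sequences were seen and overlapping the first, the gamma-activated sequence TTCNNNGAA, the Y box core CCAAT, a site of the X2 box TGACG, and kappa B sites in a shorter form GGGANTTCC and a longer form (GGGGA and TCCCC around any 1 base). The windows of H2-K1 (minus strand, chr17:34000298-34000597), H2-D1 (plus strand, chr17:35262844-35263143) and B2m (plus strand, chr2:122147437-122147736) are given for the class I chains.
H2-K1: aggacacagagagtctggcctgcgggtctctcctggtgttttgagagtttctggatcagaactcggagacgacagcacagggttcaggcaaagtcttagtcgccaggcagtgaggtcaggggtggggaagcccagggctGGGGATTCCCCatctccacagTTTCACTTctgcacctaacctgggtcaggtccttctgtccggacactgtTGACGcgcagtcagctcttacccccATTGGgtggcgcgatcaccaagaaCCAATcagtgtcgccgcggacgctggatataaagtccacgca
H2-D1: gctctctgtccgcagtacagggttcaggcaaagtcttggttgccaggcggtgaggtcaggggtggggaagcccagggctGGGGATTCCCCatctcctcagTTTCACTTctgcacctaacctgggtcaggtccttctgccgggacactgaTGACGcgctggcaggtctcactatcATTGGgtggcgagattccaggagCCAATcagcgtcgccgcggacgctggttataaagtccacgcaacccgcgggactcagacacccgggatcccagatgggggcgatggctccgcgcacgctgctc
B2m: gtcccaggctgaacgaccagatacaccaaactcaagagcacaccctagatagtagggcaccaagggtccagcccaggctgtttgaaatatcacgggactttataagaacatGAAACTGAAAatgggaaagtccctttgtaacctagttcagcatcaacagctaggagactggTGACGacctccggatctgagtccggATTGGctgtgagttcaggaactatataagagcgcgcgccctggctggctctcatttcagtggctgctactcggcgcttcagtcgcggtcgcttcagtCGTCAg
The heavy chain promoters had their longest identical stretch, of 47 bases, beginning at −201 from the H2-D1 start site. Both carried the longer kappa B form, which occurred in 0.0487% of the 32851 windows of all genes. Then came AANNGAAA (23.9% of all windows), TGACG (20.8%) and CCAAT on both strands. The order was the same in both promoters. Each share counts windows with a match on either strand. For CCAAT it was 37.4%, and the share with CCAAT on both strands was not counted. B2m carried the interferon response element core (3.44% of all windows), TGACG and CCAAT, without either kappa B form. The H2-D1 window began from a start site 364 bases downstream of that in the deposited table.

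**Figure D1:**
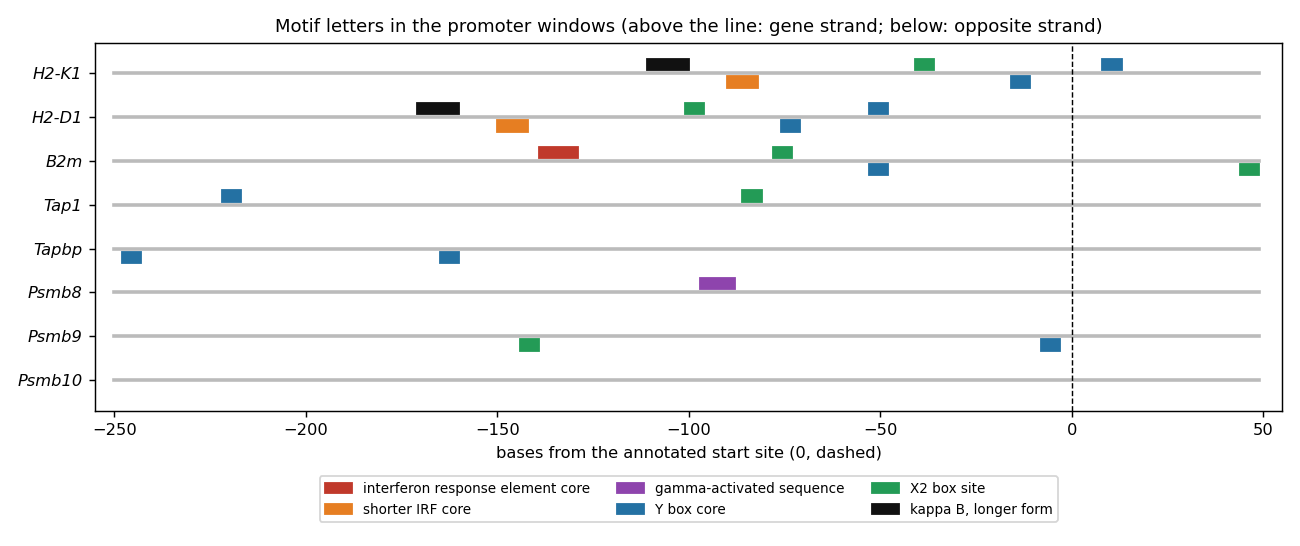
Positions of the searched letters in the promoter windows of the 8 members that have one; the horizontal axis gives bases from the annotated start site and each bar is 1 match, coloured by motif, above the line on the gene's strand and below it on the opposite one. H2-K1, H2-D1, B2m, Tap1 and Psmb9 each have the X2 box site and the Y box core, and Psmb10 has no match. The shorter core is not drawn where it lies inside the interferon response element of B2m.

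Tap1 and Psmb9 lie head to head on chromosome 17. Their RefSeq start sites are 226 bases apart on opposite strands, so that their windows share 275 bases. The Tap1 window (plus strand, chr17:34187306-34187605) is printed for both, and that of Psmb8 (plus strand, chr17:34197945-34198244) is shown because Psmb8 had the lowest fold change of the members.
Tap1: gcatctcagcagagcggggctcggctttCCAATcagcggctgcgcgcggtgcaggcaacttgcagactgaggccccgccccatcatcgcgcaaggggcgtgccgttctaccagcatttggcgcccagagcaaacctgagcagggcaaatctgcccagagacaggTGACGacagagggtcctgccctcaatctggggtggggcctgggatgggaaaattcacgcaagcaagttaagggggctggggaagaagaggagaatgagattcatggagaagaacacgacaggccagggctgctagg
Psmb8: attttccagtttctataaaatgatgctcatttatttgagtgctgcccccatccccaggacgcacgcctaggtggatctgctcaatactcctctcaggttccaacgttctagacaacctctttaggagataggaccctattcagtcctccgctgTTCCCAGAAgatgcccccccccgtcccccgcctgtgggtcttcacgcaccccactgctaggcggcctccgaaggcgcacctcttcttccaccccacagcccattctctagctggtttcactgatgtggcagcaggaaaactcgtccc
Within the Tap1 window were 1 CCAAT and 1 TGACG, and within the Psmb8 window 1 TTCNNNGAA, a sequence in 8.30% of all windows. The start sites of the windows of Psmb8, Psmb9, Psmb10 and Tapbp lie 474, 434, 52 and 3579 bases downstream of those in the deposited table. Tapbp held CCAAT on the opposite strand at 2 positions, and Psmb10 held none of the letters searched. A match is a description of letters and not of a bound factor. Tap2 and Nlrc5 had no entry.

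All 10 members passed the filter on low counts and were tested among 15185 genes with edgeR's quasi-likelihood test. None passed: 0 of 10 had an adjusted p under 0.05, where the background was 0% of all genes in edgeR, and 0.396% in DESeq2, which also called 0 members. Fitted means were lower in knockout for each of the 10, against 50.1% of all genes, and the log2 fold changes had a median of −0.15, against −0.00078 for all genes. Without wild-type replicate 1 that median was −0.09, with 9 of 10 lower. An unadjusted p under 0.05 was found for 2 members, Psmb8 and H2-K1, both lower in knockout, and for 6.29% of all genes (3.44% lower and 2.85% higher). The groups did not overlap, with knockout lower, for 4 members (H2-K1, B2m, Tapbp and Psmb8), where 7.57% of all genes had that pattern and 6.95% the opposite one, which no member had. The fold changes ran from −1.22 for Psmb8 to −0.0011 for Tap1, and differed in how far they rested on single libraries.

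**Figure D2:**
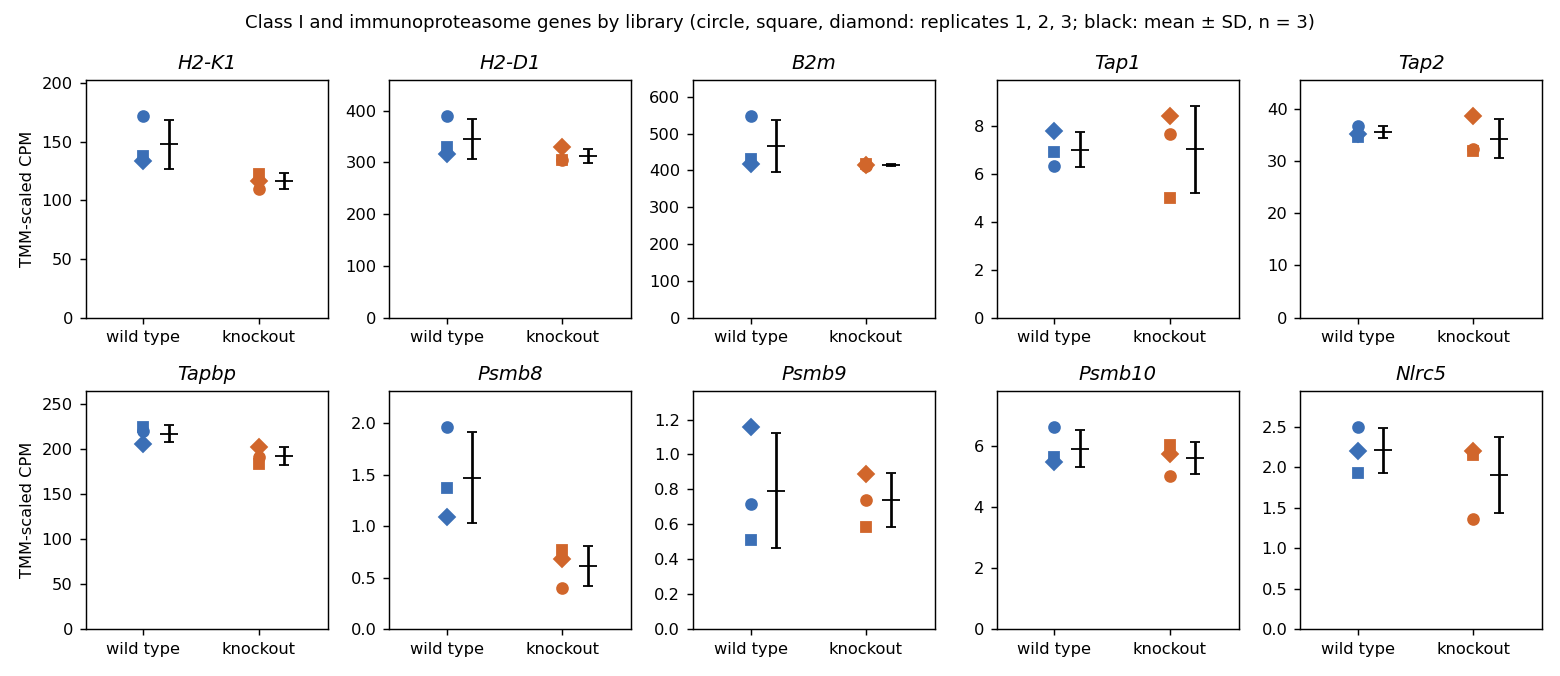
TMM-scaled CPM of each member in the 6 libraries (points; circle, square and diamond are replicates 1, 2 and 3), with the mean and SD of 3 libraries in black; all vertical axes start at 0. Psmb8 is the member with the widest relative gap, from 1.09 to 1.96 CPM in wild type and from 0.398 to 0.763 CPM in knockout, while the knockout values of B2m, from 413 to 419 CPM, lie closest together.

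Of the class I chains, the heavy chain gene H2-K1 differed most. It lies on chromosome 17 from 33996017 to 34000333 (mm10), on the minus strand. H2-K1 was at 172, 138 and 134 CPM in wild type and at 109.9, 123 and 117 CPM in knockout. All knockout libraries were below all wild-type libraries, and wild-type replicate 1 was the highest. The means were 148 ± 21.1 and 117 ± 6.55 CPM (SD, n = 3). The log2 fold change was −0.34 ± 0.13 SE (95% interval −0.64 to −0.05) and did not pass (edgeR adjusted p = 0.775); without wild-type replicate 1 it was −0.22.

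H2-D1, the other classical heavy chain, was the most counted of the heavy chain genes. It lies on chromosome 17 from 35262730 to 35267499 on the plus strand. H2-D1 was at 389, 329 and 317 CPM in wild type and at 305, 304 and 329 CPM in knockout. The groups overlapped, since knockout replicate 3 was as high as wild-type replicate 2. The log2 fold change was −0.14 ± 0.12 SE (95% interval −0.42 to 0.14, edgeR adjusted p = 0.793), and −0.05 without wild-type replicate 1.

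The ratio of the heavy chains within a library, which does not depend on the scaling between libraries, was lower in every knockout library. Counts of H2-K1 were 44.2%, 42.0% and 42.2% of those of H2-D1 in wild type. In knockout they were 36.0%, 40.5% and 35.5%. The groups did not overlap, and knockout replicate 2 lay nearest to wild type. This ratio was chosen after the values were seen and has no test. The deposited counts of both genes were mostly fractional, being within 0.01 of a whole number in 1 of 6 libraries for H2-K1 and in 0 of 6 for H2-D1, so the split of reads among similar genes is uncertain. With all 14 class I heavy chain genes of the H2 region summed, of which H2-K1 and H2-D1 made up at least 93.0% in every library, the log2 fold change was −0.20 ± 0.13 SE (edgeR adjusted p = 0.778), and −0.09 without wild-type replicate 1.

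B2m, the gene of the invariant light chain beta-2 microglobulin, lies on chromosome 2 from 122147686 to 122153083. B2m was at 548, 431 and 419 CPM in wild type and at 413, 419 and 414 CPM in knockout. Wild-type replicate 1 was apart from the other libraries, and the groups were separated only by the fifth digit, with wild-type replicate 3 at 418.74 CPM and knockout replicate 2 at 418.73 CPM. The log2 fold change was −0.17 ± 0.13 SE (95% interval −0.47 to 0.14, edgeR adjusted p = 0.786), and −0.03 without wild-type replicate 1. Relative to the heavy chains, B2m overlapped between the groups: its counts were 97.6%, 92.3% and 92.9% of the H2-K1 and H2-D1 sum in wild type and 99.5%, 98.2% and 93.0% in knockout. This ratio, too, was chosen after the values were seen.

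The peptide transport genes showed small differences. Tap1 and Tap2 encode the subunits of the transporter that carries peptides into the endoplasmic reticulum, and together with Psmb8 and Psmb9 they occupy 34334 bases of chromosome 17, from 34181988 to 34216321, in which the table lists 1 further gene, Gm15821. Tap1 was at 6.36, 6.92 and 7.81 CPM in wild type and at 7.68, 4.98 and 8.44 CPM in knockout. The knockout libraries held both the highest and the lowest value. Its log2 fold change was −0.0011 ± 0.22 SE (95% interval −0.50 to 0.50), and it was −0.066 without wild-type replicate 1. Its sign changed with the scaling, being 0.041 with library totals and 0.011 in DESeq2. Tap2 was at 36.7, 34.5 and 35.1 CPM in wild type and at 32.3, 31.9 and 38.6 CPM in knockout, again with the knockout spread around the wild-type values (log2 fold change −0.05 ± 0.12 SE, 95% interval −0.33 to 0.23, and −0.021 without wild-type replicate 1). Tap2 overlaps Gm15821 in the table, and its counts were fractional in all 6 libraries.

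Tapbp encodes tapasin, which bridges TAP and the empty class I molecule. It lies on chromosome 17 from 33915899 to 33929288. Tapbp was at 220.1, 224 and 206 CPM in wild type and at 191, 183 and 203 CPM in knockout. Every knockout library was below every wild-type library, and the extremes were not in wild-type replicate 1 but in wild-type replicate 2 and knockout replicate 2. The means were 217 ± 9.48 and 192 ± 9.95 CPM (SD, n = 3), with a log2 fold change of −0.17 ± 0.11 SE (95% interval −0.42 to 0.07, edgeR adjusted p = 0.778). Leaving out each library in turn gave −0.21 to −0.14, including −0.16 without wild-type replicate 1. The table places Gm19412 and Zbtb22 over parts of Tapbp.

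Among the immunoproteasome subunits, Psmb8 had the lowest fold change of the 10 members. Psmb8 encodes the beta-5i subunit, which takes the place of Psmb5 and cuts after hydrophobic residues. It lies on chromosome 17 from 34197721 to 34201454. Its counts were 33, 27 and 31 in wild type and 7, 17 and 19 in knockout, or 1.96, 1.37 and 1.09 CPM against 0.398, 0.763 and 0.676 CPM. The groups did not overlap, and all of these counts were whole numbers. The log2 fold change was −1.22 ± 0.41 SE (95% interval −2.14 to −0.30) and did not pass (edgeR adjusted p = 0.760; DESeq2 −1.22, adjusted p = 0.651). Over the leave-one-out fits it ran from −1.42 to −0.97, and it was −0.97 without wild-type replicate 1. Of all genes, 0.843% had a log2 fold change of −1 or below, a share over genes of every depth and not over those counted as low as Psmb8.

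Psmb9 encodes beta-1i, which takes the place of Psmb6. Psmb9 had counts of 12, 10 and 33 in wild type and of 13, 13 and 25 in knockout. At 0.713, 0.508 and 1.16 CPM in wild type and 0.740, 0.584 and 0.890 CPM in knockout, the wild-type libraries enclosed the knockout ones. Its log2 fold change was −0.12 ± 0.43 SE (95% interval −1.10 to 0.85, edgeR adjusted p = 0.952), and it was −0.20 without wild-type replicate 1 and 0.28 without wild-type replicate 3. In the deposited table Psmb9 and Tap1 overlap by 212 bases, and their fractional counts added up to whole numbers, 119, 146 and 256 in wild type and 148, 124 and 262 in knockout, so the reads of each cannot be told apart there. Their sum had a log2 fold change of −0.01 (edgeR adjusted p = 0.993), an alternative added after the data were seen.

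Psmb10, the gene of beta-2i, lies apart from the others, on chromosome 8 from 105935735 to 105938444. Psmb10 was at 6.60, 5.64 and 5.46 CPM in wild type and at 5.01, 6.02 and 5.73 CPM in knockout. The groups overlapped (log2 fold change −0.07 ± 0.18 SE, 95% interval −0.48 to 0.33, edgeR adjusted p = 0.928), and without wild-type replicate 1 the value was 0.013. The table lists Gm16156 over part of it.

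Each immunoproteasome subunit was then set against the constitutive subunit whose place it takes, as a percentage of counts within a library. Psmb8 counts were 2.07%, 1.66% and 1.48% of those of Psmb5 in wild type, and 0.540%, 1.12% and 0.849% in knockout. The groups did not overlap, and the mean difference was −1.10 on the log2 scale. For Psmb9 against Psmb6 the percentages were 0.450%, 0.358% and 0.899% in wild type and 0.593%, 0.482% and 0.619% in knockout, which overlapped. For Psmb10 against Psmb7 they were 9.97%, 9.18% and 10.13% in wild type and 10.07%, 12.03% and 10.05% in knockout, with overlap; the mean difference of 0.13 on the log2 scale was 0.045 without knockout replicate 2, the only knockout library above the wild-type range. The highest of these percentages over all libraries was 12.03%. These ratios have no test.

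**Figure D3:**
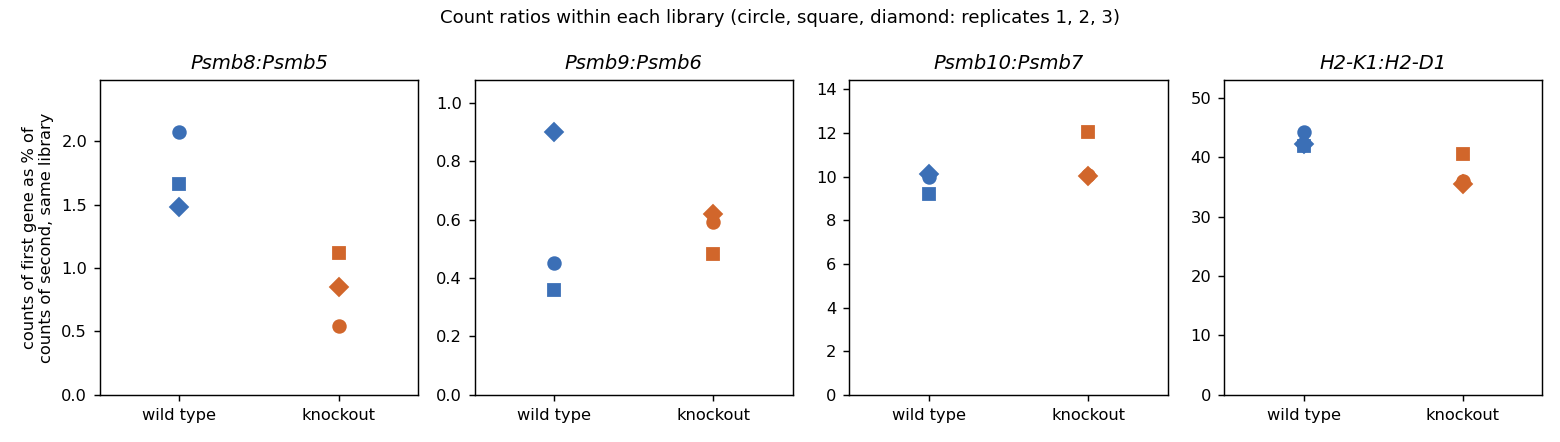
Counts of the first gene as a percentage of the counts of the second in the same library, for the 3 subunit pairs and for H2-K1 against H2-D1; circle, square and diamond are replicates 1, 2 and 3, and the vertical axes start at 0. The groups are apart for Psmb8 to Psmb5 (1.48% to 2.07% against 0.540% to 1.12%) and for the heavy chains (42.0% to 44.2% against 35.5% to 40.5%), and overlap for the other pairs.

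Nlrc5, a NOD-like receptor family protein that activates class I promoters, was among the least counted members. It lies on chromosome 8 from 94434356 to 94527272, with counts of 42, 38 and 63 in wild type and 24, 48 and 62 in knockout. Nlrc5 was at 2.50, 1.93 and 2.21 CPM in wild type and at 1.37, 2.16 and 2.21 CPM in knockout. Only knockout replicate 1 was below the wild-type range. Its log2 fold change of −0.20 ± 0.29 SE (95% interval −0.86 to 0.46, edgeR adjusted p = 0.869) was −0.02 without that library and −0.11 without wild-type replicate 1.

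The levels of the members could be ordered per kilobase of the longest annotated protein-coding transcript, for which Nlrc5 had no entry. In wild type, B2m was at 542 ± 82.9, H2-D1 at 164 ± 18.5, H2-K1 at 92.2 ± 13.2 and Tapbp at 74.9 ± 3.28 CPM per kilobase (SD, n = 3). Tap2 (10.3 ± 0.338), Psmb10 (4.65 ± 0.481) and Tap1 (2.38 ± 0.247) followed, and Psmb8 (0.905 ± 0.274) and Psmb9 (0.586 ± 0.245) were lowest. The order was the same in knockout down to Tap1, while Psmb8 (0.376 ± 0.117) then lay below Psmb9 (0.546 ± 0.113). The wild-type ranges of H2-K1 and Tapbp did not overlap, at 83.3 to 107 and 71.2 to 77.4 CPM per kilobase, and those of Psmb8 and Psmb9 did. In knockout the ranges of H2-K1 (68.4 to 76.6) and Tapbp (63.2 to 70.01) overlapped. Those of Psmb8 (0.245 to 0.469) and Psmb9 (0.432 to 0.659) overlapped there as well. The constitutive subunits Psmb6 (183 ± 19.97), Psmb5 (95.9 ± 12.4) and Psmb7 (52.2 ± 5.37) lay above all immunoproteasome subunits.

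The members varied among themselves in which library was highest. Wild-type replicate 1 was the highest library for 6 of the 10 (H2-K1, H2-D1, B2m, Psmb8, Psmb10 and Nlrc5), where it was for 32.1% of all genes, and knockout replicate 1 was the lowest for 5 (H2-K1, B2m, Psmb8, Psmb10 and Nlrc5), where it was for 18.9%. Tap1 and Tap2 were highest in knockout replicate 3 and lowest in knockout replicate 2. The mean centred log2 CPM of the 10 members was 0.25, 0.01 and 0.10 in wild type and −0.23, −0.14 and 0.01 in knockout, so knockout replicate 3 lay at the level of wild-type replicate 2. Of 10733 other genes with a mean of at least 5 CPM, the 6 whose profiles over the 6 libraries lay closest to this mean were Tmem203, Rbm17, B230118H07Rik, Ndufaf1, Dhps and Tubg1, with root mean square differences from 0.022 to 0.036 on the log2 scale. None of these belongs to the gene lists used here.

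**Figure D4:**
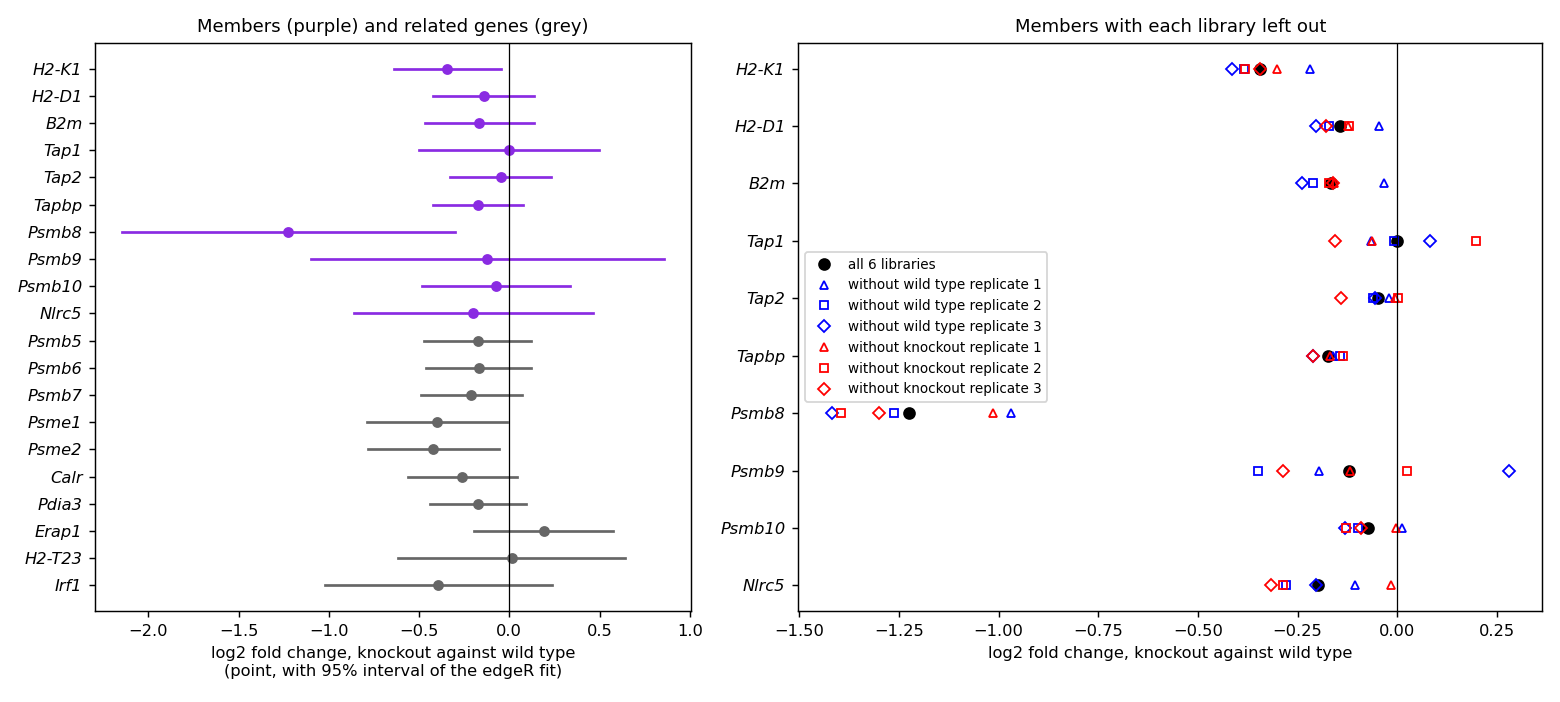
Left, log2 fold change of knockout against wild type for the members (purple) and 10 related genes (grey), with 95% intervals of the edgeR fit; right, the members' values with all 6 libraries (black) and with each library left out. Of the members, the intervals of H2-K1 and Psmb8 lie wholly below 0, and the value of Psmb8 stays between −1.42 and −0.97 whichever library is left out.

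Among the 14 constitutive subunits of the 20S core, the barrel that holds the proteolytic sites, 13 had a lower fitted mean in knockout (median −0.17) and 0 passed. The subunits that the immunoproteasome replaces were at −0.18 ± 0.13 SE for Psmb5, −0.17 ± 0.13 for Psmb6 and −0.21 ± 0.12 for Psmb7, and without wild-type replicate 1 they were at −0.075, −0.090 and −0.14. Among the others Psma5 was at −0.26 (−0.17 without that library) and Psma7 at −0.24. Among 10 activators and assembly factors, 8 had a lower fitted mean (median −0.21) and 0 passed.

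The interferon-induced cap of the proteasome, PA28, is made of the Psme1 and Psme2 products. Psme1 was at 48.5, 35.9 and 31.5 CPM in wild type and at 30.2, 26.2 and 31.3 CPM in knockout. Psme2 was at 16.6, 12.2 and 13.02 CPM in wild type and at 10.8, 9.61 and 10.8 CPM in knockout. For both genes the groups did not overlap and wild-type replicate 1 was the highest library. The log2 fold changes were −0.40 ± 0.17 SE for Psme1 and −0.42 ± 0.16 SE for Psme2 (edgeR adjusted p = 0.778 and 0.775), and without wild-type replicate 1 they were −0.20 and −0.28. Psme4, which encodes the PA200 activator, had a higher mean in knockout, at 48.2, 55.02 and 51.8 CPM in wild type and 73.6, 75.5 and 62.4 CPM in knockout (0.45 ± 0.12 SE, edgeR adjusted p = 0.582). None of the 3 passed.

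Of the other class I and class I-like heavy chain genes, 17 of 32 were in the table and 11 were tested, of which 7 had a lower and 4 a higher fitted mean (median −0.23), with 0 passing. H2-Q4, a class Ib gene, was at 3.86, 1.93 and 1.96 CPM in wild type and at 0.968, 1.53 and 2.03 CPM in knockout (−0.74 ± 0.39 SE, and −0.35 without wild-type replicate 1), with the groups overlapping. H2-M3, whose product presents formylated peptides, was at −0.39 ± 0.21 SE without overlap. H2-T23, the gene of Qa-1, was at 0.012 ± 0.28 SE, with a sign that changed when single libraries were left out (0.42 without wild-type replicate 1). H2-Q10 and H2-T22 overlapped between the groups. H2-Q10 was at −0.71, and at −0.27 without wild-type replicate 2. H2-T22 was at −0.23, at −0.14 without wild-type replicate 1 and at −0.11 without knockout replicate 1.

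Among 17 other genes of peptide trimming and loading, 6 had a lower and 11 a higher fitted mean (median 0.02), and 0 passed. Calr, the gene of the chaperone calreticulin, was at −0.26 ± 0.13 SE, and Pdia3, the gene of the thiol oxidoreductase of the loading complex, at −0.17 ± 0.12. Erap1, which trims peptides in the endoplasmic reticulum, was at 0.19 ± 0.17, and at 0.015 without wild-type replicate 1. Thop1, a cytosolic peptidase gene, was at −0.32 ± 0.14 and Pdia6 at −0.33 ± 0.14. Nrd1, the gene of a metallopeptidase, was at 0.26, and at 0.11 without that library.

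**Figure D5:**
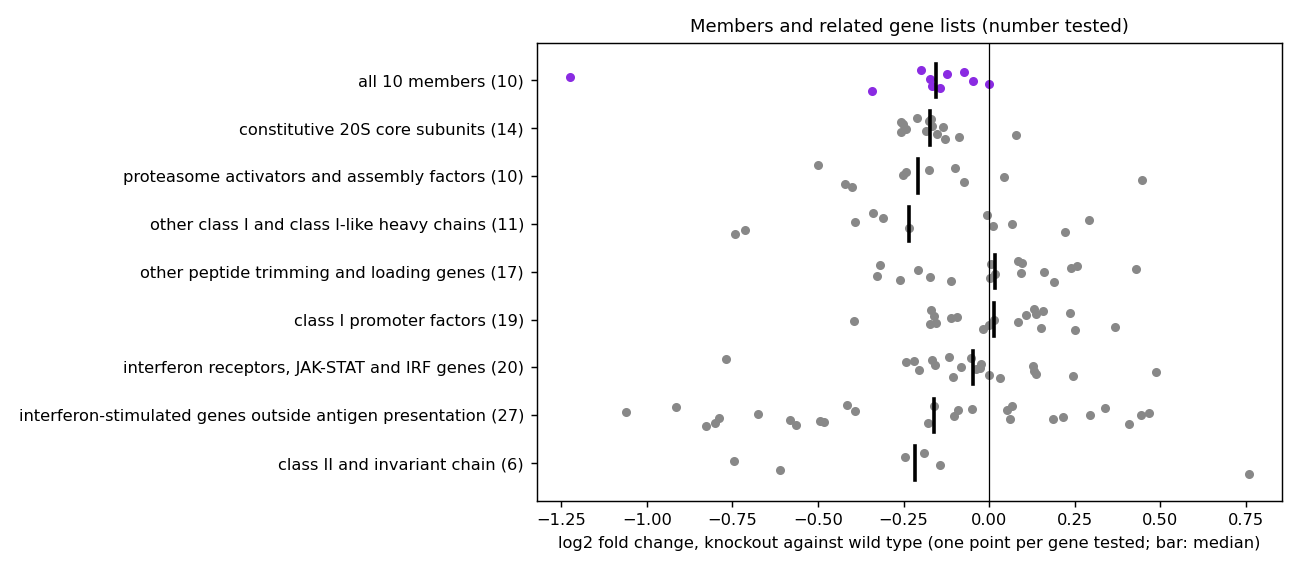
Log2 fold change of knockout against wild type for every tested gene of the members and 8 related lists (points), with the median of each list as a black bar and the number tested in brackets. The members' median of −0.15 lies beside those of the constitutive 20S core (−0.17) and of interferon-stimulated genes outside the pathway (−0.16).

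Genes upstream of the members did not share 1 direction. Among 19 tested factors of class I promoters, 9 had a lower and 10 a higher fitted mean (median 0.01), and 0 passed. Irf1, an interferon-induced activator of the class I and immunoproteasome promoters, was at 143, 83.6 and 127 CPM in wild type and at 54.02, 105.7 and 109 CPM in knockout. The groups overlapped and knockout replicate 1 was the lowest library, as it was for Psmb8, H2-K1, B2m, Psmb10 and Nlrc5. The log2 fold change of Irf1 was −0.39 ± 0.28 SE (edgeR adjusted p = 0.781), and it was −0.13 with knockout replicate 1 left out and −0.23 with wild-type replicate 1 left out. The coactivator gene Kat2b was at 0.24, and Creb1, whose product binds the X2 box, at 0.37 (0.11 without wild-type replicate 1). Relb was at −0.16.

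Of 20 tested genes of interferon receptors, JAK-STAT signalling and IRF factors, 14 had a lower and 6 a higher fitted mean (median −0.05), and 0 passed. Jak2, a kinase of the interferon gamma receptor, was at 0.49 ± 0.24 SE (0.23 without wild-type replicate 1) and Usp18, an interferon-induced brake on the pathway, at −0.77 ± 0.40. Irf9 was at −0.24. The list held 22 genes, of which 20 were in the count table. It included the genes of interferon gamma and interferon beta, whose own values are not given here.

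Interferon-stimulated genes outside antigen presentation had a lower fitted mean for 17 and a higher one for 10 of 27 tested (median −0.16), and 0 passed. The naming rule took Trim25 (−0.91 ± 0.22 SE), an E3 ligase gene of RNA sensing, Isg15 (−0.83 ± 0.26), a ubiquitin-like modifier gene, Ifih1 (−0.79 ± 0.30), the gene of the RNA sensor MDA5, and Bst2 (−0.50 ± 0.19), the gene of tetherin. Trim25 was at 4.82, 3.86 and 5.32 CPM in wild type and 2.45, 2.38 and 2.598 CPM in knockout, and the groups of all 4, which were chosen by their p, did not overlap. In the whole list the groups did not overlap for 6 of 27 genes with knockout lower and for 0 with knockout higher, where 7.57% and 6.95% of all genes had these patterns. Without wild-type replicate 1, Bst2 was at −0.29. Their edgeR adjusted p-values ran from 0.525 for Trim25 to 0.775 for Ifih1 and Bst2.

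Immune cells also express class I and immunoproteasome genes, so their markers were read beside the members. Of 16 macrophage markers 14 were in the table, 8 of them at 0 in at least 1 library, and their sum ran from 5.35 to 12.5 CPM in wild type and from 2.79 to 11.5 CPM in knockout. Wild-type replicate 1, where Psmb8 was highest, had the lowest wild-type sum (5.35 CPM), and knockout replicate 1, where Psmb8 was lowest, the lowest of all. This sum leaned on Lyz2, the most counted of these markers, at 7, 81 and 150 counts in wild type and 10, 99 and 30 in knockout. The order of the wild-type libraries in it rested on Lyz2, and without Lyz2 wild-type replicate 1 was not the lowest of them. Of the 4 markers tested, Cd68 and Lyz2 had a lower fitted mean in knockout, and Cd14 (0.24, and 0.063 without wild-type replicate 1) and Csf1r (0.13, but −0.44 in limma voom) a higher one. Ptprc, the pan-leukocyte gene, had 0, 0 and 16 counts in wild type and 4, 4 and 9 in knockout. Cd68 was at 2.68, 1.32 and 1.30 CPM in wild type and 0.512, 1.12 and 1.14 CPM in knockout, without overlap (−0.89 ± 0.44 SE, and −0.47 without wild-type replicate 1), and it was highest and lowest in the same libraries as Psmb8. Lyz2 and Csf1r were highest in wild-type replicate 3 and knockout replicate 2, respectively. Of 18 lymphocyte and granulocyte markers 5 were in the table, with sums from 0.225 to 0.712 CPM over the 6 libraries. Of 8 dendritic cell markers only Zbtb46 (0.26, and 0.094 without wild-type replicate 1) and Xcr1 (0.51) were in the table, both with a higher fitted mean in knockout. In bulk libraries fewer cells of a type and less RNA per cell cannot be told apart, and the part of these cells in the Psmb8 difference was not tested.

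MHC class II genes were low in both genotypes. Cd74, the invariant chain, was at 3.92, 3.66 and 1.40 CPM in wild type and 1.76, 3.55 and 2.42 CPM in knockout, and H2-Ab1 was at 1.38 ± 0.609 and 0.880 ± 0.179 CPM. Of 6 class II genes tested, 5 had a lower fitted mean (median −0.22) and 0 passed. The groups overlapped for each of the 6. The gene with a higher fitted mean, H2-Aa, was at 0.76 ± 0.88 SE, at 0.25 without wild-type replicate 1 and at −0.22 without knockout replicate 2. Ciita, the class II transactivator, had between 3 and 12 counts a library and was not tested. Sums of the endothelial list ran from 118.5 to 139 CPM in wild type and from 121 to 154 CPM in knockout, and those of the adventitial fibroblast list from 5456 to 6650 and from 4535 to 5892 CPM. All 8 endothelial markers tested had a higher fitted mean in knockout (median 0.23), and the groups overlapped for each. Without wild-type replicate 1, Tie1 was at 0.52 in place of 0.83, Vwf at 0.16 in place of 0.32 and Esam at 0.08 in place of 0.20. Erg was at 0.23 in place of 0.14. The endothelial sum was mostly Pecam1, Erg and Esam, while Cdh5 and Kdr had 42 and 37 counts over all libraries. Of 12 adventitial fibroblast markers tested, 7 had a lower and 5 a higher fitted mean (median −0.09), and 0 passed in either list. The part of these cells in the members' values was not tested.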

How the data were processed

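RNA of 6 libraries of aortic smooth muscle cells, 3 per genotype, was extracted with Trizol and prepared with the Illumina TruSeq RNA kit, per the labels' protocols. STAR 2.6, DESeq2 and mm10 are listed, per the submitters' processing notes; no source used here names the counting tool. The values deposited by the authors are taken to be expected counts per gene because many are fractional: 65.4% lay within 0.01 of a whole number. Strand use in counting is not given, so overlapping genes are uncertain.

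Counts were rounded, filtered with filterByExpr, scaled with TMM and tested with edgeR 4.0.16 (glmQLFit and glmQLFTest, robust=TRUE, R 4.3.3), two-sided. P-values were adjusted by Benjamini-Hochberg across the 15185 tested genes (threshold 0.05). Standard errors come from the fold change and the F statistic, and 95% intervals use the moderated degrees of freedom. CPM are TMM-scaled, and log2 CPM used a prior count of 2. Alternatives used DESeq2 1.42.0 and limma voom 3.58.1, other scalings and filters, a replicate block and each library left out. Scripts were tested on simulated data.

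Members and lists were chosen with earlier results of these data known. Members, up to 4 genes with the smallest p per list, a fixed set of pathway genes and the 6 nearest profiles were named. One gene that this rule names is not reported here. The deposited stop lay 1 base past the gene end and was reduced by 1; positions are 1-based, mm10.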

Additional observations from a re-analysis of the deposited data

How the results depend on the processing

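None of the 10 members passed under any of the 13 other settings (DESeq2, limma voom, RLE size factors, library totals, no filter, robust off, replicate block and 6 leave-one-out fits), and the median of their log2 fold changes stayed negative, from −0.11 with library totals to −0.15 with robust off, and from −0.20 to −0.09 with each library left out; 7 to 10 members had a lower fitted mean. Over all genes 0 were called in edgeR, 66 in DESeq2, and 0 to 9 with each library left out (9 without wild type replicate 1 and 1 without wild type replicate 2). Signs changed for Tap1 (0.011 in DESeq2, 0.0057 with RLE size factors, 0.041 with library totals, 0.0066 without the filter, −0.16 to 0.20 with each library left out), Psmb9 (−0.35 to 0.28), Psmb10 (−0.13 to 0.013), Tap2 (−0.14 to 0.0019), H2-T23 (−0.17 to 0.42), H2-Aa (−0.22 to 1.43), Cd74 (−0.55 to 0.059, and 0.0047 in limma voom), Csf1r (−0.44 in limma voom, −0.17 with the replicate block) and the Psmb9 to Psmb6 ratio (−0.18 to 0.48); the cause was not tested. The labels number replicates in both groups, but same-numbered libraries did not deviate together (correlations of −0.27, −0.18 and −0.08 across genes). These are deviations from means of 3 libraries, so they cannot decide whether the numbers pair the libraries. With the replicate block the members' median was −0.15, 0 members passed, and 572 genes in place of 955 had an unadjusted p under 0.05 (620 to 1271 with each library left out). Depth limits Psmb8, Psmb9 and Nlrc5, which had 7 to 63 counts a library.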
